A study of Mus musculus with 33 samples.

Results

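Transcripts of 7 genes of blood vessel endothelium, Kdr, Plvap, Emcn, Cdh5, Gpihbp1, Esam and Pecam1, were followed through 33 bulk RNA libraries of sorted mouse cells. They are known endothelial genes, listed by name with earlier results of these data known, and are 7 of the 15273 genes in the table. Expression was measured by bulk MARS-seq, in which the 3' end of each transcript is read with a unique molecular identifier (UMI), so that molecules and not reads are counted. The sorted cells were thymic epithelial cells (TEC), the epithelium in which T cells mature, and skin cells. TEC came from wild-type C57BL/6 mice: 2 libraries at embryonic day 15 (E15), 2 at embryonic day 17 (E17), 2 each at postnatal day 6 titled mTEC4, mTEC2 and mTEC1, and 20 at 6 weeks, 4 each titled cTEC and mTEC1 to mTEC4. The abbreviations usually mean cortical and medullary TEC. The skin libraries, 3 in number and titled HFC, held cells of the dorsal skin of C57BL/6 mice at 4 weeks with the genotype Foxn1.EGFP positive. No source used here says how the sort was gated or whether replicate libraries stem from different mice, so the p-values speak only to variation among these libraries, which may be technical.

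Endothelial cells line blood vessels, and in the thymus they form the capillaries that run through cortex and medulla and the vessels through which progenitors enter and mature T cells leave. Epithelium and endothelium are separate lineages, and the 7 genes serve as endothelial markers in most tissues. Kdr encodes VEGF receptor 2, the main signalling receptor for VEGF-A on endothelium. Cdh5 (VE-cadherin), Pecam1 (CD31) and Esam sit at contacts between endothelial cells; Pecam1 is also made by platelets and some leukocytes, and Esam by platelets and some blood progenitors. Plvap forms the diaphragms of fenestrae and caveolae, Emcn is a sialomucin of capillaries and veins, and Gpihbp1 carries lipoprotein lipase across capillary endothelium to its lumen.

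Of the 7 genes, Kdr and Emcn had an entry in the RefSeq promoter table for GRCm38.p6; Plvap, Cdh5, Gpihbp1, Esam and Pecam1 are named only. The windows run from 250 bases before the annotated start to 50 after it, 5' to 3' on the gene's strand. They are shown for every member with an entry and were not chosen by level. They lie at chr5:75978406-75978705, minus strand (Kdr), and chr3:137340828-137341127, plus strand (Emcn). Capitals mark matches, on either strand, to 5 words: CCGGAAG and, as another ETS-like word, CAGGAAG; the GATA-like word AGATAAG; the GC box GGGCGG; and the TATA box TATAAA.
Kdr: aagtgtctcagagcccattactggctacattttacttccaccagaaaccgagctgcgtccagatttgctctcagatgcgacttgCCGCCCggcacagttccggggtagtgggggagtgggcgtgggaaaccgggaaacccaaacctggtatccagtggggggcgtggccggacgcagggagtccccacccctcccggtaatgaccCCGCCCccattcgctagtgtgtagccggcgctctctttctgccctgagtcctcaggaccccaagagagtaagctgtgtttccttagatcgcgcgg
Emcn: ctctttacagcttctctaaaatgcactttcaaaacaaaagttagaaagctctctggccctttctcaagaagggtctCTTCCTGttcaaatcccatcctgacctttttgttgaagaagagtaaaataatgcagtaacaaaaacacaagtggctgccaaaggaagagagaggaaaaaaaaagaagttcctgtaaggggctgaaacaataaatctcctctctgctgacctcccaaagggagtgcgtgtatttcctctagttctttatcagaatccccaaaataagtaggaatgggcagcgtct
The Kdr window held GGGCGG on the opposite strand, starting 166 and 45 bases before the start site, and none of the other words. The Emcn window held CAGGAAG on the opposite strand, 174 bases before the start site, and none of the others. Over all 32851 promoters of this table, 35.7% held GGGCGG, 13.3% CAGGAAG, 8.86% CCGGAAG, 20.9% either of the last pair, 13.6% TATAAA and 3.04% AGATAAG on either strand. Kdr and Emcn shared no word of this set in these windows, and a match describes letters only.

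Library totals ran from 98670 to 1732688 UMIs. Levels are given as CPM, a gene's UMIs scaled to a library total of 1000000, and 3 UMIs, the limit that a count of 0 allows, correspond to 1.73 CPM in the deepest library and 30.4 CPM in the shallowest. Titles and marker genes disagreed at 6 weeks. Each of the 20 libraries passed exactly 1 of 5 marker levels, Prss16 above 0.2% of UMIs, Krt5 above 0.25%, Aire, Pth or Trpm5 above 0.1%, and each marker took 4 libraries, but in each case those 4 libraries carried 4 different titles. Prss16, a serine protease of cortical TEC, was high in the libraries titled mTEC1 to mTEC4 of number 196. The 6-week libraries are therefore set out by marker, as a description with no test between markers, since those groups are not the study's. At day 6 the libraries titled mTEC1 had 5857 and 7398 CPM of Prss16 and 434 and 556 CPM of Aire. Those titled mTEC4 had 3536 and 2403 CPM of Prss16, and those titled mTEC2 had 505 and 451 CPM of Trpm5, a channel of tuft cells, so the day 6 names are likewise titles and not cell types. As a check of the tissue, 8 epithelial genes (Epcam, Cdh1, keratins and claudins) summed to between 5515 and 16595 CPM in every TEC library.

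**Figure D1:**
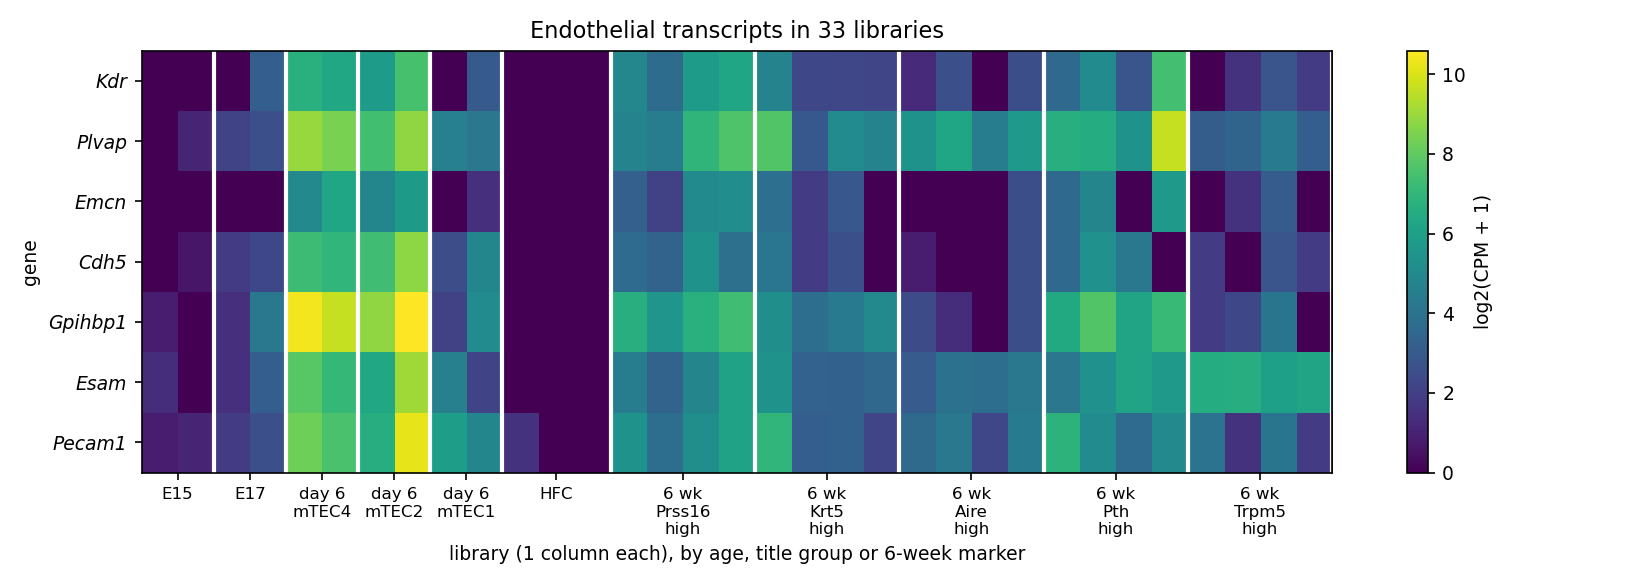
Level of the 7 endothelial genes (rows) in 33 libraries (columns, grouped by age, title or 6-week marker), as the colour of log2(CPM + 1). The 4 libraries titled day 6 mTEC4 and mTEC2 are bright for all 7 genes, HFC is dark, and Esam alone is bright in the 4 Trpm5-high libraries.

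At day 6 the 7 genes were abundant under the titles mTEC2 and mTEC4 and scarce under mTEC1. Their summed level was 1040.2 and 4409 CPM in the libraries titled mTEC2, 2667 and 1772 CPM in those titled mTEC4, and 113 and 119 CPM in those titled mTEC1. In bulk RNA, more endothelial cells in a sort and more of these transcripts per cell cannot be told apart. Of the 7 genes, 6 rose in mTEC2 against mTEC1 at an adjusted p below 0.05 (limma, moderated test, adjusted over 11543 genes); 6.15% of those genes were called in either direction and 2.95% as higher. All 7 passed the filter of 5 UMIs, scaled to the median total, in at least 2 libraries, but within mTEC1 alone only Plvap and Pecam1 reached it, so the count describes genes that entered through the groups where they are high. The 21 other pan-endothelial genes measured, of 23 listed, stood at 1468 and 5248 CPM in mTEC2 and 641 and 440.2 CPM in mTEC1.

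Kdr, the VEGF receptor, had 55.4 and 179 CPM in the day 6 mTEC2 libraries, against 0 and 7.01 CPM in the mTEC1 libraries, a log2 difference of 4.70 ± 1.02 (SE; adjusted p = 0.0261, limma). Gpihbp1, the lipase carrier, had 455 and 1542 CPM in mTEC2, against 3.13 and 33.3 CPM in mTEC1 (log2 difference 6.00 ± 0.996, adjusted p = 0.0083). Plvap had 166 and 460.3 CPM in mTEC2, against 23.5 and 17.5 CPM in mTEC1 (3.66 ± 0.57, adjusted p = 0.00663). In each of these 3 genes both mTEC2 libraries lay above both mTEC1 libraries, and the second mTEC2 library was the higher. Emcn had 27.7 and 53.8 CPM in mTEC2, against 0 and 1.75 CPM in mTEC1 (4.03 ± 0.76, adjusted p = 0.0143). Of the junction genes, Cdh5 had 160.0 and 448 CPM in mTEC2, against 4.70 and 28.1 CPM in mTEC1 (4.28 ± 0.77, adjusted p = 0.0119). Esam had 80.0 and 547 CPM in mTEC2, against 23.5 and 3.51 CPM in mTEC1 (4.20 ± 1.007, adjusted p = 0.0361). Their groups did not overlap. How many of all genes had groups without overlap was not counted, so the lack of overlap is not a result about these members. Pecam1 had 95.4 and 1178 CPM in mTEC2, against 58.0 and 28.1 CPM in mTEC1, and did not pass (3.004 ± 0.93, adjusted p = 0.0879). The second mTEC2 library held most of it.

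The call rests on few libraries. Fitted with the mTEC1 and mTEC2 libraries alone, 0 of the 7 genes and 0 of all genes passed, and the 7 differences were the same in size. Without the first mTEC1 library 0 of the 7 passed, and without the second 2 (Cdh5 and Gpihbp1). Without the second mTEC2 library Kdr and Esam lost their calls, and without the first all 7 passed. With edgeR's quasi-likelihood test on the recovered UMIs 7 passed. With DESeq2 6 passed, Kdr being lost (adjusted p = 0.188) and Pecam1 gained, and with a pseudocount of 0.5 in limma Esam was lost (adjusted p = 0.0573).

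The day 6 libraries titled mTEC4 also exceeded mTEC1, with 3 of the 7 genes past the threshold (limma). Of all 11543 genes, 1.33% were called in this comparison and 0.39% as higher. Of the 3 called members only Plvap reached the filter within mTEC1. Gpihbp1 and Emcn entered through the groups where they are high, so the count is not comparable with that share. Gpihbp1 had 1343 and 818 CPM in mTEC4, against 3.13 and 33.3 CPM in mTEC1 (log2 difference 6.33 ± 0.996, adjusted p = 0.0256). Plvap had 503 and 352 CPM in mTEC4, against 23.5 and 17.5 CPM in mTEC1 (4.26 ± 0.57, adjusted p = 0.0142). Emcn had 31.1 and 76.6 CPM in mTEC4, against 0 and 1.75 CPM in mTEC1 (4.35 ± 0.76, adjusted p = 0.0337). The groups did not overlap in any of these 3 genes, but how often this held over all genes was not counted. Kdr (104 and 80.1 CPM in mTEC4), Cdh5 (150.3 and 125 CPM), Esam (228 and 132 CPM) and Pecam1 (308 and 188 CPM) also lay above every mTEC1 library, with log2 differences of 2.52 to 4.57 and adjusted p-values of 0.0598 to 0.22 (limma). Without either mTEC1 library 0 of the 7 passed, without the second mTEC4 library 1 (Plvap) and without the first 2 (Plvap and Emcn). Emcn lost its call with the mTEC4 and mTEC1 libraries fitted alone (adjusted p = 0.0836, limma) and with genes filtered at a mean of 10 (adjusted p = 0.0507). Cdh5 and Kdr were gained with a pseudocount of 5, Cdh5 with edgeR, and Cdh5 and Esam with DESeq2.

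Between the titles mTEC4 and mTEC2 none of the 7 genes differed past the threshold (limma, adjusted p from 0.482 to 0.962), where 7.36% of all 11543 genes were called and 2722 had an unadjusted p below 0.05; edgeR and DESeq2 also called 0 of the 7. The log2 differences, mTEC4 over mTEC2, ran from -0.96 ± 0.77 for Cdh5 to 0.60 ± 0.57 for Plvap. Cdh5 had 150.3 and 125 CPM in mTEC4 and 160.0 and 448 CPM in mTEC2, and it was the member of the 7 whose groups did not overlap here. The share of all genes without overlap was not counted. With 2 libraries a group, intervals this wide do not show that the groups are alike. Without the first mTEC2 library Pecam1 passed, at -2.28.

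**Figure D2:**
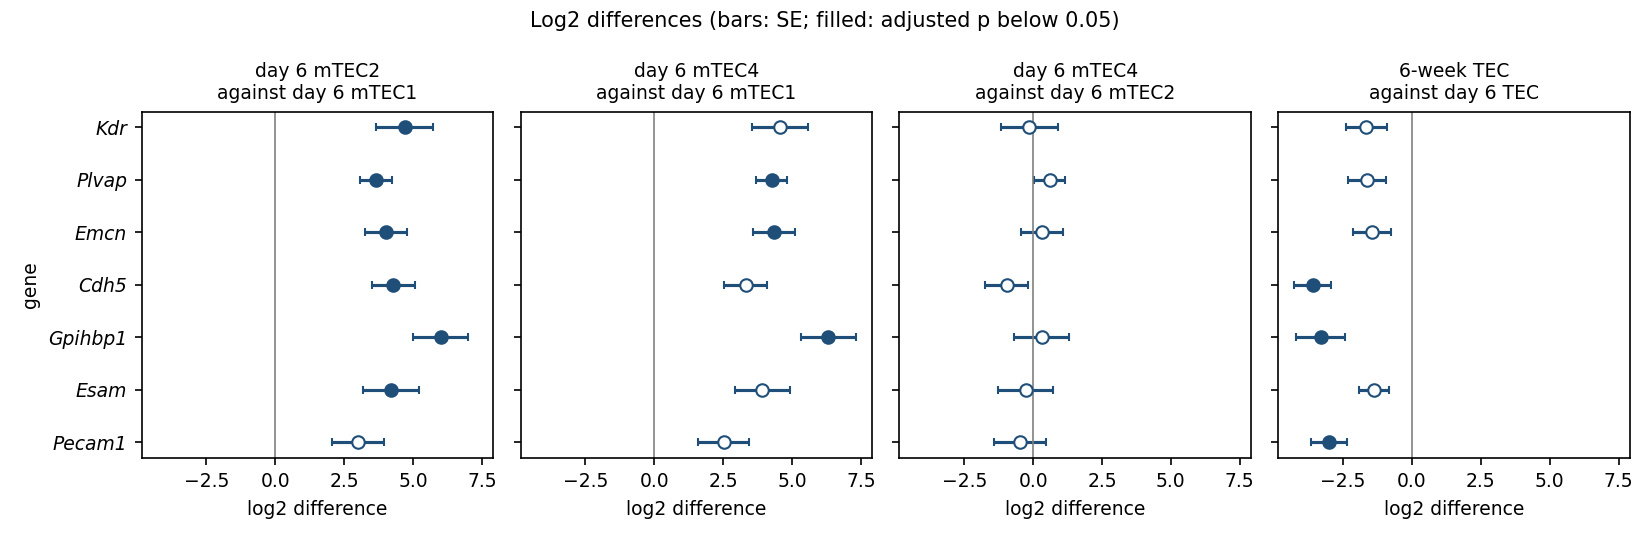
Log2 difference of each endothelial gene (y axis) in 4 comparisons (panels; x axis, log2 of scaled UMIs + 1), with bars for 1 SE and filled points where the adjusted p is below 0.05 (limma). All 7 points lie right of 0 for day 6 mTEC2 and mTEC4 against mTEC1, around 0 for mTEC4 against mTEC2, and left of 0 for 6-week TEC against day 6 TEC.

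Other cell types were measured beside these differences. Of the 21 other pan-endothelial genes, 4 rose and 0 fell in mTEC2 against mTEC1 (limma; median log2 difference 2.21, against -0.08 over all genes), led by Cldn5, an endothelial tight junction claudin (280 and 526 CPM in mTEC2, against 50.9 and 36.0 CPM in mTEC1; 3.11, adjusted p = 0.00933), Cd93 (3.37, adjusted p = 0.0132), the VEGF receptor Flt1 (4.24, adjusted p = 0.0189) and Robo4 (3.72, adjusted p = 0.0491). In mTEC4 against mTEC1, 2 rose, Cd93 (4.40, adjusted p = 0.0187) and Cldn5 (3.20, adjusted p = 0.0288), and 0 fell (median 2.50). Of 11 tested genes of vessel subtypes, 4 rose and 1 fell in mTEC2 against mTEC1: the capillary genes Ly6c1 (4.16, adjusted p = 0.00186) and Aqp1 (5.15, adjusted p = 0.00777) rose, with Rgcc and Ephb4, and the arterial gene Hey1 fell by 1.94 (adjusted p = 0.0265). Of mural genes, which mark pericytes and smooth muscle, Des rose by 3.49 and Myh11 fell by 3.33, out of 10 tested. None of 12 thymocyte, 9 mesenchymal or 9 myeloid genes passed in mTEC2 or mTEC4 against mTEC1. The mesenchymal sum was 1954 and 3795 CPM in mTEC4, 828 and 1276 CPM in mTEC2, and 821 and 810.2 CPM in mTEC1; 8 of its 9 genes lay above 0 in mTEC4 against mTEC1 (median log2 difference 1.49) and 3 of 9 in mTEC2 against mTEC1. The mural sum was 637 and 1318 CPM in mTEC2, 902 and 477 CPM in mTEC4, and 378 and 365 CPM in mTEC1, with median log2 differences of 1.83 for mTEC2 and 1.60 for mTEC4 against mTEC1. Summed thymocyte genes stood at 742 and 717 CPM in mTEC2, 1001 and 710.3 CPM in mTEC4, and 887 and 938 CPM in mTEC1. Summed epithelial genes stood at 8315 and 6058 CPM in mTEC2, 7007 and 6226 CPM in mTEC4, and 12690.7 and 15444 CPM in mTEC1, so the libraries richest in the 7 genes had the lower epithelial sums; the part of this in the differences was not tested.

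For Gpihbp1 and Kdr the molecules they act with were looked up. Of the 4 lipase partners (Lpl, Lmf1, Angptl4 and Cd36) none passed in a day 6 comparison (limma). Lpl, the lipase itself, had 2.99 and 40.0 CPM in the mTEC2 libraries, 45.3 and 51.8 CPM in mTEC4 and 35.1 and 37.6 CPM in mTEC1. Of 12 tested genes of the VEGF and angiopoietin pathway, the receptors Kdr and Flt1 rose in mTEC2 against mTEC1 and 0 fell; none passed in mTEC4 against mTEC1. The ligand Vegfa had 26.9 and 52.3 CPM in the mTEC2 libraries, 41.5 and 80.1 CPM in mTEC4 and 54.8 and 73.7 CPM in mTEC1, and did not pass in any day 6 comparison.

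In embryonic TEC the 7 genes were near the detection limit. Their summed counts were 14 and 48 UMIs at E17, or 12.4 and 47.6 CPM, against 4 and 5 UMIs at E15, or 3.20 and 2.89 CPM. Gpihbp1 was the member with the most UMIs at E17, with 2 and 18, against 1 and 0 at E15, and Kdr had 0 and 8 UMIs at E17 and none at E15. Emcn had 0 UMIs in all 4 embryonic libraries, which allows up to 1.73 to 2.98 CPM in each. None of the 7 genes differed between E17 and E15 past the threshold (limma, adjusted p of 0.762 or more). Each had at most 2 UMIs in an E15 library, and Esam had 2 UMIs in the first library of each age. None of the 7 reached the filter within these ages alone. Of 11543 genes 0.762% were called and 642 had an unadjusted p below 0.05 (limma). With edgeR and DESeq2 0 of the 7 were called. Of the other pan-endothelial genes 0 of 21 passed. These were the deepest libraries, with 1007370 to 1732688 UMIs.

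HFC held almost none of these transcripts. Over the 3 HFC libraries and 1841009 UMIs, 1 UMI was found, of Pecam1 in the first library (1.92 CPM), and the other 6 genes had 0. The 20 TEC libraries at 6 weeks had a median of 119 CPM for the 7 genes together, between 37.9 and 1257 CPM. Against the limit of 3 UMIs over the HFC group (1.63 CPM), the mean level was at least 59.1-fold lower in HFC than in 6-week TEC for Plvap (6-week mean 96.3 CPM), 32.5-fold for Gpihbp1 (53.0 CPM), 23.0-fold for Esam (37.5 CPM), 13.9-fold for Kdr (22.7 CPM), 6.29-fold for Emcn (10.3 CPM) and 5.75-fold for Cdh5 (9.37 CPM). Without the 6-week library mTEC1 195 the bounds for Plvap, Kdr and Emcn are 36.0-fold (58.7 CPM), 9.08-fold (14.8 CPM) and 4.99-fold (8.13 CPM). Medians at 6 weeks were below these means, at 5.43 CPM for Kdr, 3.93 CPM for Emcn and 4.89 CPM for Cdh5. Of the 20 libraries, 2, 7 and 5 had 0 UMIs of these genes, in that order. In the fit of the postnatal libraries, Plvap (adjusted p = 4.78e-04), Esam (1.37e-04), Gpihbp1 (0.0237) and Pecam1 (0.0118) fell in HFC (limma, 4 of 7), where 21.5% of 14141 genes were called and 17.2% as lower. The median of all genes lay at -0.76 in this comparison, and the 4 called members at -4.66 to -3.08. None of the 7 reached the filter within HFC, so all 7 entered this test through the TEC libraries, where they are high. Plvap, Esam and Pecam1 did not overlap with 6-week TEC, though the share of all genes without such overlap was not counted. Plvap and Esam kept their calls whichever 1 of these libraries was left out. Gpihbp1, at 0 in 2 of the 20 6-week libraries, lost its call without any of the 3 HFC libraries. Pecam1 lost its call without the second or the third, and Kdr passed without the 6-week library mTEC4 189 or mTEC1 191. With a pseudocount of 5 Gpihbp1 and Pecam1 lost their calls (adjusted p = 0.0826 and 0.0933, limma), Kdr passed with one of 0.5, and Kdr and Cdh5 passed with DESeq2. Of the other pan-endothelial genes 10 of 21 fell, led by Ecscr (-4.30, adjusted p = 3.66e-04), and none rose. Thymocyte genes summed to between 0 and 2.94 CPM in HFC and between 23.8 and 704 CPM in 6-week TEC, and 6 of 12 fell. The myeloid sum was 5.76 to 26.5 CPM in HFC and 45.9 to 2969 CPM in 6-week TEC. The ranges overlapped for the mural sum (225 to 256 against 182 to 2524 CPM) and the mesenchymal sum (23.0 to 165 against 44.7 to 5088 CPM).

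**Figure D3:**
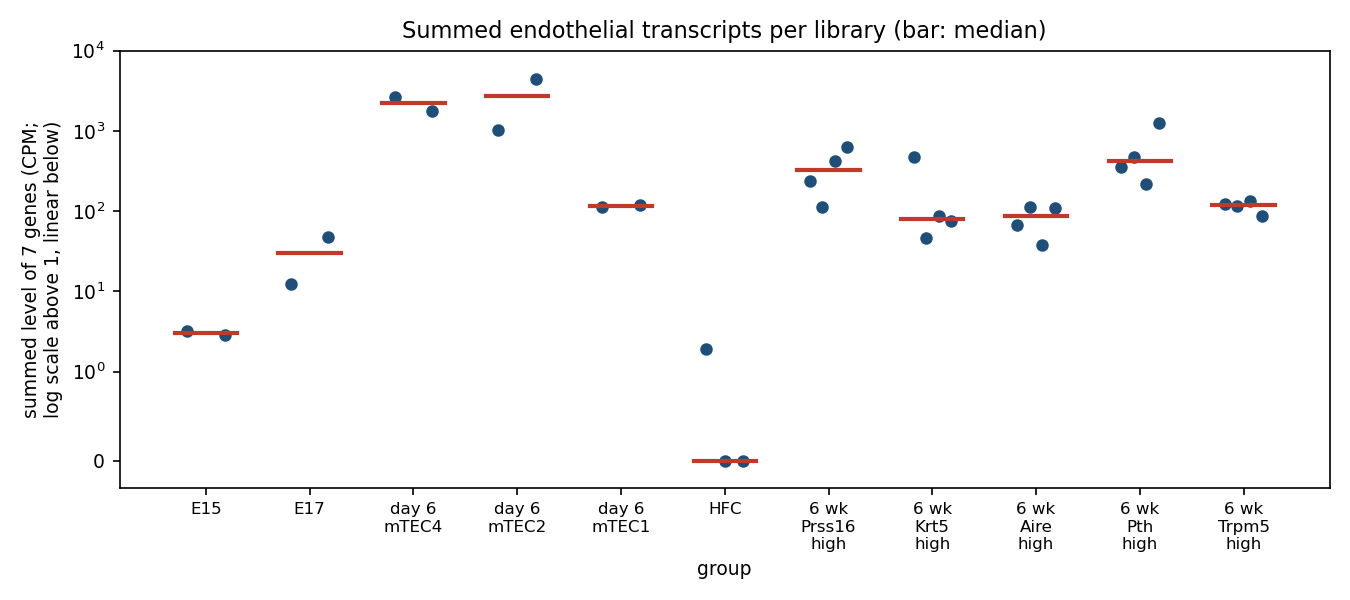
Summed level of the 7 endothelial genes (CPM; log scale above 1 CPM, linear below) in each library (points) by group, with the median as a bar. Day 6 mTEC4 and mTEC2 lie between 1040.2 and 4409 CPM, day 6 mTEC1 at 113 and 119 CPM, and the 6-week libraries between 37.9 and 1257 CPM.

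At 6 weeks every library held some of these transcripts, and the summed level was below that of every day 6 mTEC2 and mTEC4 library in 19 of the 20. The exception was the library titled mTEC1 195, with 1257 CPM, against 1040.2 CPM in the first mTEC2 library. The Pth-high libraries (Pth encodes parathyroid hormone) had the highest median of the summed level, 416 CPM (220.1 to 1257), and the Prss16-high libraries 329.6 CPM (113 to 625). The Trpm5-high libraries had 119 CPM (87.6 to 134), the Aire-high libraries 88.2 CPM (37.9 to 113) and the Krt5-high libraries 80.7 CPM (45.8 to 468). Neighbours in this order overlap in range, and the Pth-high libraries lay above every Trpm5-high and Aire-high library. The Pth-high libraries held 98670 to 175014 UMIs, against 217794 to 970628 in the Prss16-high ones. The part of depth in this order was not tested. Gpihbp1 had a median of 114 CPM in Pth-high libraries (71.4 to 209) and 104 CPM in Prss16-high ones (45.3 to 163). It reached 25.6 CPM in Krt5-high libraries (13.1 to 37.8), 3.25 CPM in Trpm5-high (0 to 16.4) and 3.01 CPM in Aire-high (0 to 4.77), so the first 2 sets did not overlap with the other 3. Plvap was spread differently: 98.6 CPM in Pth-high (41.6 to 811), 72.5 in Prss16-high (20.6 to 203), 47.4 in Aire-high (20.8 to 73.8), 29.7 in Krt5-high (6.54 to 207) and 8.87 in Trpm5-high (7.77 to 19.4). The 4 Trpm5-high libraries lay below every Aire-high library for Plvap. Esam was highest where Plvap was lowest, with the other 4 sets in the same order: its median was 82.5 CPM in Trpm5-high libraries (62.5 to 95.8), 45.6 in Pth-high (17.1 to 71.4), 24.0 in Prss16-high (9.27 to 67.5), 14.0 in Aire-high (7.30 to 17.9) and 10.1 in Krt5-high (8.78 to 40.9). Kdr had medians between 2.30 CPM (Trpm5-high) and 42.1 CPM (Prss16-high), and Emcn between 0 (Aire-high) and 20.3 CPM (Prss16-high). Cdh5 had medians between 0.365 CPM (Aire-high) and 14.6 CPM (Pth-high). The Pth-high value of Cdh5 rests on 11 UMIs over 4 libraries, 1 of them at 0. It lies below the 17.1 to 30.4 CPM that a count of 0 allows in those libraries. Pecam1 had medians between 8.31 and 39.8 CPM and its lowest median in Krt5-high libraries.

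Single 6-week libraries stood out. The library titled mTEC1 195, Pth-high and the shallowest of the series with 98670 UMIs, held 80 UMIs of Plvap (811 CPM), 17 of Kdr (172 CPM) and 14 of Gpihbp1 (142 CPM), but 0 of Cdh5, which allows up to 30.4 CPM. Its mesenchymal sum, 5088 CPM, was the highest of the 33 libraries, and the Pth-high libraries had the highest mesenchymal median at 6 weeks, 2473 CPM; the part of this in the endothelial levels was not tested. The library titled cTEC 189, Krt5-high, held 137 UMIs of Plvap (207 CPM) and 83 of Pecam1 (126 CPM), while the other 3 Krt5-high libraries had 3.65 to 8.78 CPM of Pecam1. It carried 984 CPM of the other pan-endothelial genes, against 141 to 250.2 CPM in those 3, and its mural sum, 2524 CPM, was the highest of the 33 libraries.

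Against day 6 TEC, taken as the mean of its 3 titles, 6-week TEC, the mean of its 5 titles, had lower Cdh5, Gpihbp1 and Pecam1. The high day 6 levels lay in the titles mTEC2 and mTEC4. Day 6 mTEC1 summed to 113 and 119 CPM, beside a 6-week median of 119 CPM. It averaged 18.2 CPM of Gpihbp1, 16.4 CPM of Cdh5 and 43.0 CPM of Pecam1. The ages hold different sets of sorted cells, so age and cell set cannot be told apart. Cdh5 averaged 9.37 ± 12.2 CPM at 6 weeks and 153 ± 159 CPM at day 6 (SD, n = 20 and n = 6), a log2 difference of -3.61 ± 0.66 (SE; adjusted p = 0.00126, limma). Gpihbp1 averaged 53.0 ± 62.3 CPM at 6 weeks and 699 ± 652 CPM at day 6 (-3.32 ± 0.88, adjusted p = 0.0196). Pecam1 averaged 29.3 ± 35.0 CPM at 6 weeks and 309 ± 437 CPM at day 6 (-3.00 ± 0.65, adjusted p = 0.00519). Thus 3 of 7 fell, where 7.15% of 14141 genes were called and 4.07% as lower. Kdr, Plvap, Emcn and Esam had log2 differences of -1.66 to -1.38 and adjusted p-values of 0.118 to 0.209. The ranges of all 7 genes overlapped between the ages. Leaving out the second day 6 mTEC2 library left 1 call, Cdh5. Gpihbp1 also lost its call without either day 6 mTEC4 library or the second mTEC1 library, and Plvap passed, at -1.91, without the 6-week library mTEC1 195. With the 20 libraries at 6 weeks taken as 1 group, 3 of the 7 passed. Fitted so, in alternatives chosen after the data were seen, 5 passed without the 4 Pth-high libraries, Kdr (-2.01) and Plvap (-2.04) too; 4 passed without the Prss16-high ones, Kdr too (-2.11), and 4 without the Trpm5-high ones, Esam too (-1.75). Of the other pan-endothelial genes 11 of 21 fell and 0 rose (median -2.57, against 0.13 over all genes), led by Cldn5 (-4.00, adjusted p = 5.27e-04) and Egfl7 (-3.65, adjusted p = 9.02e-04). Of 12 thymocyte genes 9 fell as well and 0 rose, Ptcra (-3.51, adjusted p = 4.78e-04) among them, and the thymocyte sum was 23.8 to 704 CPM at 6 weeks and 710.3 to 1001 CPM at day 6.

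Whether the 7 genes moved together from library to library is described here by their correlations and by their shares of the summed UMIs; no source of the transcripts was tested. Across all 33 libraries the log2 levels of the 7 genes ran together: the 21 pairwise Pearson correlations lay between 0.64 and 0.93, with a median of 0.81. Kdr with Emcn and Kdr with Gpihbp1 were the closest pairs, at 0.93 each. These values are a description; the points share library depth and include HFC and embryonic libraries near 0. Over the 30 thymic libraries the range was 0.60 to 0.92. At 6 weeks alone (20 libraries) it was 0.07 to 0.89 with a median of 0.63. Esam accounted for the lowest values: its 6 correlations at 6 weeks lay between 0.07 and 0.19, and between 0.49 and 0.69 over the 16 libraries left when the 4 Trpm5-high ones are set aside. Cdh5 and Plvap had r = 0.28 at 6 weeks, and 0.57 without the library mTEC1 195. Set against the sum of the other 6 genes at 6 weeks, r was 0.88 for Kdr, 0.82 for Emcn, 0.70 for Pecam1, 0.64 for Gpihbp1, 0.60 for Plvap, 0.50 for Cdh5 and 0.08 for Esam.

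**Figure D4:**
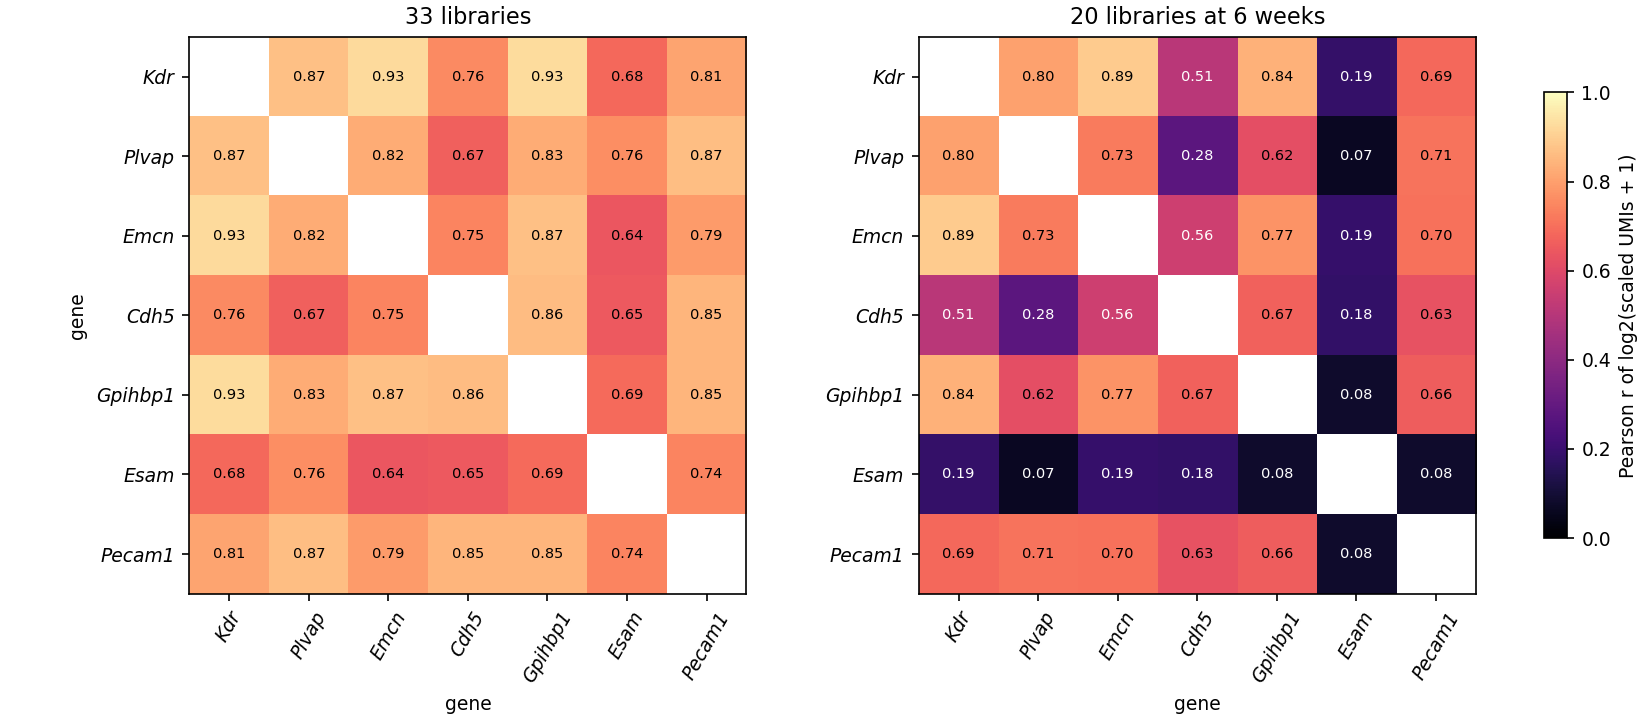
Pearson correlation of log2(scaled UMIs + 1) between each pair of the 7 endothelial genes (rows and columns) over all 33 libraries (left) and over the 20 libraries at 6 weeks (right). All pairs lie at 0.64 or above on the left, and the Esam row lies at 0.19 or below on the right.

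The shares of the 7 genes in their summed UMIs varied within day 6 mTEC2 and mTEC4, and Gpihbp1 was the largest share in each of these 4 libraries. Gpihbp1 made up 35.0% to 50.3% of the UMIs of the 7 genes, Plvap 10.4% to 19.8%, Esam 7.47% to 12.4%, Cdh5 5.64% to 15.4% and Emcn 1.17% to 4.32%, while Pecam1 took 26.7% in the second mTEC2 library and 9.17% to 11.6% in the other 3. Pooled over the 4 libraries, Gpihbp1 was 42.3% of 3351 UMIs (exact Clopper-Pearson 95% interval 40.6% to 44.0%, counting error only). The Prss16-high libraries at 6 weeks had 33.4% Gpihbp1 (29.3% to 37.6%), 22.8% Plvap and 8.88% Esam of 518 UMIs, though Kdr was 12.0% (9.30% to 15.1%) against 4.21% (3.55% to 4.94%) at day 6. Pooled over all 4 Pth-high libraries, Gpihbp1 was 24.5% and Plvap 40.5% of 294 UMIs. In the 4 Krt5-high libraries they were 15.0% and 40.3% of 454. In each of these sets 1 library was also set apart after its values were seen. Pth-high libraries without mTEC1 195 had 34.1% Gpihbp1 and 22.9% Plvap of 170 UMIs, and that library alone had 11.3% and 64.5% of 124. Krt5-high libraries without cTEC 189 had 29.7% Gpihbp1 and 31.7% Plvap of 145 UMIs, and that library alone had 8.09% and 44.3% of 309. In the Aire-high libraries Plvap took 57.9% of 273 UMIs (51.8% to 63.8%), from 48.4% to 65.2% in each library, and Gpihbp1 4.03% (2.03% to 7.10%). In the Trpm5-high libraries Esam took 67.2% of 229 UMIs (60.8% to 73.3%), from 46.7% to 83.1% in each. Per UMI of Plvap there were 0.0696 UMIs of Gpihbp1 in Aire-high libraries and 2.82 in day 6 mTEC2 and mTEC4. Per UMI of Cdh5 there were 25.7 UMIs of Esam in Trpm5-high libraries, from 154 and 6 UMIs, and 1.13 in day 6 mTEC2 and mTEC4. The day 6 mTEC1 libraries, with 140 UMIs, differed from each other: Pecam1 was 51.4% of the first and 23.5% of the second, Gpihbp1 2.78% and 27.9%.

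**Figure D5:**
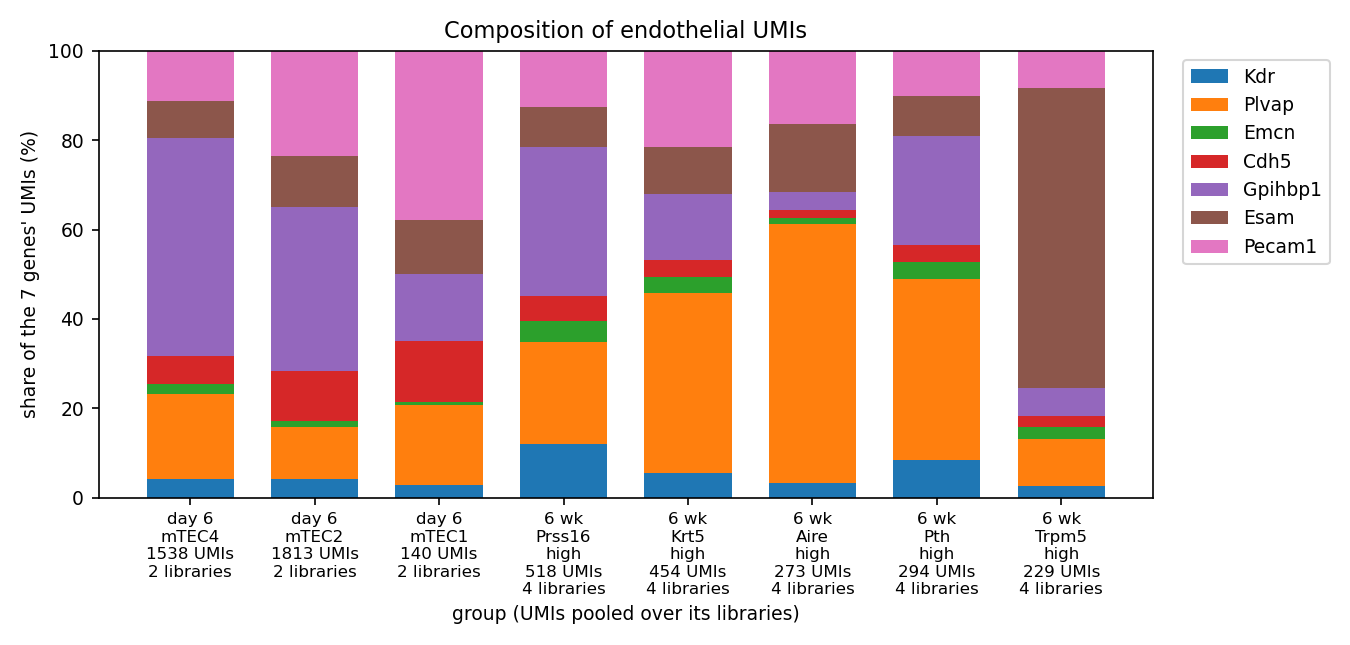
Share of each gene in the UMIs of the 7 endothelial genes (y axis, percent), pooled over the libraries of each group (x axis, with the UMIs and libraries behind each bar). Gpihbp1 is the largest share in day 6 mTEC4 and mTEC2 and in Prss16-high libraries. Plvap is the largest in Aire-high (57.9%), Pth-high (40.5%) and Krt5-high libraries (40.3%), and Esam in Trpm5-high libraries at 67.2%.

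Put on the scale of day 6 mTEC2 and mTEC4, whose mean level is set to 100%, the same pattern was seen gene by gene. In Trpm5-high libraries the mean level of Esam was 32.7% of that mean (25.3% to 38.8% in single libraries), against 0.550% for Gpihbp1, 1.27% for Cdh5, 2.06% for Pecam1, 2.52% for Kdr, 3.03% for Plvap and 4.97% for Emcn. In Aire-high libraries Plvap stood at 12.8% (5.63% to 19.9%) and Esam at 5.39%, and the other 5 between 0.259% and 2.97%. The Prss16-high libraries had Cdh5, Pecam1, Gpihbp1 and Esam between 8.69% and 12.6%, Plvap at 24.9%, and Kdr and Emcn at 40.9% and 41.9%. The 21 other pan-endothelial genes had medians of 2.28% in Trpm5-high, 5.20% in Aire-high and 16.5% in Prss16-high libraries. The members had medians of 2.52%, 2.66% and 12.6% there. Single genes among the 21 ranged from 0.735% to 109% in Aire-high libraries, so some stood above Plvap there and some below. Among the members the range was 7.89% (Cdh5) to 70.9% (Plvap) in Pth-high libraries. In Krt5-high libraries it was 2.45% (Gpihbp1) to 18.5% (Plvap). Markers of other cells moved with these sets: the myeloid sum was 2348 to 2969 CPM in Aire-high libraries and at most 1251 CPM in the other 6-week libraries, and their part in the Plvap share was not tested.

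The Plvap counts carry a limit of position. Plvap (chr8:71497765-71511752, minus strand) shares 1819 bases at its 3' end with Gtpbp3 (chr8:71488103-71499583, plus strand, a tRNA-modifying GTPase of mitochondria), by GENCODE M21 on GRCm38, and no source used here states if counting used the strand. Gtpbp3 had 3.79 to 23.0 CPM in Aire-high libraries, where Plvap had 20.8 to 73.8, and 5.76 to 13.3 CPM in HFC, where Plvap had 0. Kdr (chr5:75932827-75978458), Emcn (chr3:137341067-137432185), Gpihbp1 (chr15:75596628-75599481), Esam (chr9:37528078-37538319) and Pecam1 (chr11:106654217-106750628) overlap no other gene in that annotation. Cdh5 (chr8:104101625-104144511) overlaps an antisense gene, Gm29682, not listed among the 15273.

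Genes whose log2 level ran most closely with the summed level of the 7 over the 33 libraries were sought among 12079 others. The 10 closest were Gimap6 (r = 0.94), Aqp1 (0.92), Fabp4 (0.91), Gngt2 (0.90), Npr1 (0.89), Col15a1 (0.89), Igfbp7 (0.88), Klf2 (0.88), Sparcl1 (0.88) and Eng (0.88). Fabp4, a fatty acid binding protein, averaged 3577 CPM in day 6 mTEC2 and mTEC4 and 327 CPM in mTEC1. Aqp1, a water channel, averaged 952 CPM in mTEC2 and mTEC4, against 29.2 CPM in mTEC1. At 6 weeks the correlations of these 10 with the summed level lay between 0.43 for Fabp4 and 0.91 for Sparcl1. Of whole lists, the 21 other pan-endothelial genes ran closest with the 7, with r = 0.96 over 33 libraries (Spearman 0.94; 0.95 without the 2 libraries farthest from the median of the list) and 0.91 over the 20 at 6 weeks (Spearman 0.81; 0.88). The summed level ran against the library total, with r = -0.62 over 33 libraries and -0.73 at 6 weeks (-0.59 and -0.57 without the 2 farthest), so shallower libraries held larger shares of the 7 genes. Mesenchymal genes had r = 0.74 and 0.63, thymocyte genes 0.83 and 0.51, mural genes 0.57 and 0.14, myeloid genes 0.62 and -0.25 and epithelial genes -0.75 and -0.09, over 33 libraries and at 6 weeks. The part of library depth and of these other cell types in the levels of the 7 genes was not tested.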

How the data were processed

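RNA of 33 libraries was measured by bulk MARS-seq. The authors deposited a normalized signal per gene, each column summing to 100, so values are the percent of a library's UMIs; no source used here gives the authors' own scaling. The build mm10 and the tools bcl2fastq, cutadapt, STAR 2.4.2a, HTSeq and DESeq2 are named, without roles, per the submitters' processing notes. Low values were whole multiples of 1 step, and within a tolerance of 0.01 all values of all 33 libraries gave whole UMIs. These recovered UMIs gave the library totals (98670 to 1732688), the counts and the CPM.

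For tests, shares were multiplied by the median total (570253) and log2(value + 1) was fitted with limma 3.58.1 in R 4.3.3 (moderated, two-sided, trend on mean level, Benjamini-Hochberg over all genes tested, adjusted p below 0.05), on genes with 5 or more scaled UMIs in at least 2 libraries. Folds on this scale understate changes of low genes. Embryonic and day 6 libraries were fitted together, as were day 6, 6-week and HFC libraries. In the second fit 6-week TEC was the equal-weight mean of its 5 titles and day 6 TEC of its 3. Each 6-week title held libraries of 4 different markers. The spread behind the p-values and SEs of that fit therefore includes differences between marker sets. Differences between the 5 marker sets at 6 weeks were not tested. Alternatives were pseudocounts of 0.5 and 5, no filter or a mean of 10, median-of-ratios scaling, edgeR 4.0.16 and DESeq2 1.42.0 on the recovered UMIs, the compared groups alone, the title number as a block, 6-week TEC as 1 group, and each library left out. The edgeR count test called 641 genes in day 6 mTEC2 against mTEC1. Intervals are exact Clopper-Pearson at 95% and, like the limit of 3 UMIs, cover counting error only. Levels were not compared per length between genes, since 3' UMIs do not scale with it. The members and gene lists were chosen with earlier results of these data known. The genes named are the 7 members, up to 4 genes of a list with the smallest adjusted p, the 10 genes most like the summed level and the 5 marker genes; Lpl, Vegfa, Gtpbp3 and Tek were named for their link to a member or after their values were seen. Gene positions are from GENCODE M21 (GRCm38).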

Additional observations from a re-analysis of the deposited data

Results flagged for a closer look

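Within the 4 libraries of a 6-week title, 1 library stood apart from the other 3 in 8 of 40 comparisons of a gene or of the summed level. The limit used marks about 1 in 20 groups of independent values by chance, and these 40 are not independent. All 8 lie in 3 libraries; under every 6-week title the 4 libraries have 4 different markers. In the library titled cTEC 189, Kdr was 25.7 CPM (2.66 to 5.95 in the other 3 of that title), Emcn 13.6 CPM (0 in the other 3) and Pecam1 126 CPM (2.66 to 18.04). In the library titled mTEC1 195, the shallowest of the series, Kdr was 172 CPM (0 to 29.1 in the other 3), Plvap 811 CPM (6.54 to 25.7), Emcn 50.7 CPM (0 to 8.56) and the sum of the 7 genes 1257 CPM (37.9 to 241). In the library titled mTEC2 195, which is Trpm5-high, Esam was 93.3 CPM (8.78 to 17.9 in the other 3). The part of marker set and depth in these values was not tested.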

How the results depend on the processing

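With 2 libraries in most groups, calls rested on single libraries and on the shared estimate of spread. For day 6 mTEC2 against mTEC1 the members called were 6, and 0 to 7 with 1 library left out, over 95 to 2570 genes; fitted alone, 0 members and 0 genes passed, beside 710 genes. For mTEC4 against mTEC1, 3 members were called (0 to 2 with 1 library left out; 5 with a pseudocount of 5; 5 with DESeq2), over 154 genes (0 to 148 left out; 102 unfiltered; 89 at a mean of 10; 236 with DESeq2; 67 alone). For mTEC4 against mTEC2, 0 members were called (0 to 1 left out), over 849 genes (532 to 2407 left out; 471 at a mean of 10; 414 with edgeR; 565 with DESeq2; 7 alone), and log2 differences changed sign with 1 library left out: Gpihbp1 from -0.56 to 1.20 (-0.04 without the first mTEC4 library), Emcn from -0.30 to 0.95 (-0.13 without the first mTEC2 library), Esam from -1.64 to 1.10 (0.12 without the second mTEC4 library), Kdr from -0.96 to 0.70 (0.05 without the second mTEC4 library), Plvap from -0.13 to 1.33 and Pecam1 from -2.28 to 1.32. For E17 against E15, 0 members were called throughout, over 88 genes (5 to 16 left out; 167 with edgeR; 245 with DESeq2; 505 alone). For HFC against 6-week TEC, 4 members were called (2 to 5 left out; 2 with a pseudocount of 5), over 3037 genes (1625 to 3511 left out). For 6-week TEC against day 6 TEC, 3 members were called (1 to 4 left out), over 1011 genes (475 to 1245 left out; 1847 with DESeq2). Alternatives chosen after the data were seen took 6-week TEC as 1 group without a marker set: without Pth-high libraries 4741 genes were called for HFC, and 1958 genes and 5 members against day 6; without Prss16-high libraries 1932 genes against day 6. The title numbers did not pair the embryonic or the day 6 libraries (correlation of same-number deviations -0.01 to 0.04); with the number as a replicate block, the 4 comparisons of 2-library groups called 591, 58, 692 and 65 genes and 5, 3, 0 and 0 members, Esam being lost for mTEC2 against mTEC1 (adjusted p = 0.0503, limma). The numbers at 6 weeks are not shared with day 6 or HFC, and same-number deviations between titles correlated at -0.30 to 0.72 (24 of 40 above 0.1). Deviations of different numbers correlated at -0.54 to 0.70 (22 of 120 above 0.1). Most libraries of a number share a marker, so number and marker set cannot be told apart here. With a replicate block of these numbers and an estimated correlation of 0.146, added after the data were seen, HFC called 2908 genes and 4 members and the comparison with day 6 called 750 genes and 3 members, with each member's call as before. The causes of these changes were not tested. A count of 0 allows up to 30.4 CPM in the shallowest library.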

Other observations

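Tek, the receptor for angiopoietins and an endothelial gene outside the 7, was, like Esam, highest in the Trpm5-high libraries at 6 weeks. It stood at 79.7, 90.7, 97.7 and 210.0 CPM in the 4 Trpm5-high libraries and at 0 to 22.7 CPM in the other 6-week libraries. Day 6 mTEC4 had 62.2 and 17.4 CPM of Tek, day 6 mTEC2 55.4 and 2.99 CPM and day 6 mTEC1 7.83 and 10.5 CPM. Its mean in Trpm5-high libraries was 346% of its mean in day 6 mTEC2 and mTEC4 (230.9% to 609% in single libraries), while Esam reached 32.7%. The median of the 21 pan-endothelial genes outside the 7, Tek among them, was 2.28%. Day 6 mTEC2 held 505 and 451 CPM of Trpm5 in its first and second library. Between these libraries Tek and Esam went opposite ways, with 55.4 and 2.99 CPM of Tek and 80.0 and 547 CPM of Esam. Tek was singled out after its values were seen, and no test was made between marker sets.

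Ly6c1, a gene of capillary endothelium that some lymphocytes also express, was higher at E17 than at E15 by 3.08 on the log2 scale (limma, adjusted p = 0.0189), the 1 gene called among 11 tested of vessel subtypes, at an age when the 7 endothelial genes had 14 and 48 UMIs.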
